A study of Mus musculus with 10 samples.

Results

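Serine 2 phosphorylation of the RNA polymerase II C-terminal domain (Pol II S2P) marks polymerase that has left the promoter and is elongating. Here the Pol II S2P peaks that lie well inside protein-coding genes are described, in cultured mouse muscle stem cells (MuSCs, the Pax7-expressing satellite cells that repair skeletal muscle). A peak was a member if it was autosomal, shorter than 2000 bases, listed with a protein-coding gene and wholly inside it, with its centre more than 5000 bases from the transcription start site (TSS) and more than 1000 bases from the 3′ end of the gene. These criteria of position, length and gene type selected 22780 of the 51322 Pol II S2P peaks (44.4%), in 5656 genes. No measured score entered the choice directly. Peak length comes from the called signal, however, and rose with the score, from a median of 213 bases in the lowest to 711 in the highest quartile of members.

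The signal was measured by CUT&RUN, in which the nuclease MNase, fused to protein A, is brought to antibody-bound chromatin and cuts out the DNA that is then sequenced. Ctrl cells carried Pax7CreERT with wild-type Suv4-20h1 (Pax7CreERT/Suv4-20h1WT), and sKO cells carried the same driver with the inactivated gene (Pax7CreERT/Suv4-20h1KO). Suv4-20h1 is the older name of Kmt5b, whose product is a histone methyltransferase that acts on H4K20 already carrying 1 methyl group. All mice were adults of the C57BL/6 strain treated with tamoxifen, so recombination depends on cells that express Pax7, and cells were cultured before the assay. Each genotype had 2 libraries for Pol II S2P and 2 for monomethylated H4K20 (H4K20me1), which the study describes as biological replicates, and 1 library with non-specific IgG, which was not analysed here. The value for each peak and library is a deposited score, a whole number that stands for coverage normalised by spike-in, without correction for the length of the peak. Peaks were called as 1 set shared by the 4 libraries of an antibody.

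As background, elongating polymerase runs through the whole transcription unit, and serine 2 phosphorylation is laid down by the kinases Cdk9 and Cdk12 as the polymerase moves. Introns also hold enhancers, which are short accessible elements bound by transcription factors and transcribed in both directions by polymerase. In myogenic cells such elements often carry E-boxes bound by MyoD-type factors, together with AP-1, TEAD or RUNX sites. H4K20me1 is enriched along the bodies of many transcribed genes and is the substrate from which Kmt5b forms higher methylation states.

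The summed Pol II S2P score of a library lay between 3257665 and 4885638, and the genotypes overlapped, with Ctrl at 3257665 and 4243685 and sKO at 4885638 and 3435908. Scores do not give the depth in reads, so no counting interval is given. Of the 10 myogenic marker genes 8 had a peak listed, and their summed score per 10000 of the library total was 23.8 and 20.5 in Ctrl and 19.2 and 18.9 in sKO. Both sKO values lay below both Ctrl values, and the part of this in the results was not tested. The genes Myf5 and Cdh15 had none listed. The marker lists of endothelial, leukocyte, fibro-adipogenic, Schwann, adipocyte and epithelial cells each had 1 or 2 genes with a peak and stayed between 0.146 and 2.80 per 10000 in all 4 libraries, with overlapping genotypes except for the fibro-adipogenic list (0.221 and 0.181 in Ctrl, 0.168 and 0.146 in sKO) and the epithelial list (0.224 and 0.243 in Ctrl, 0.254 and 0.288 in sKO). In these lists Pecam1, Tek, Csf1r, Cd68, Dpt, Sox10, Mbp, Pparg and Cdh1 had a listed peak, with the highest score in Cd68 (863 and 952 in Ctrl, 1308 and 840 in sKO). The other genes, among them Cdh5, Kdr, Ptprc, Adgre1, Pdgfra, Dcn, Adipoq and Epcam, had none listed. A missing entry does not show a lack of signal, since peaks near Cdh15 are listed with a larger gene model described below. Kmt5b itself had a single gene-body peak, with a score of 7 and 26 in Ctrl against 22 and 10 in sKO, which overlapped and does not test the deletion.

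The sequences of 5 gene-body peaks are shown first, because they carry the motifs by which the members differed from the surrounding gene sequence. For each of 6 motifs the highest-scoring tested member that held it in the central 300 bases was taken, leaving out windows that touch an annotated UTR. Capitals mark the named motif on either strand. The motifs were AP-1 (TGANTCA), the MyoD-type E-box (CAGCTG), TEAD (GGAATG), RUNX (TGTGGTT), ETS (CCGGAAG) and SP/KLF (GGGCGG). All windows are given on the plus strand of GRCm38.p6. The Gm20388 window, chr8:120563773-120564072, lies in an intron and held both AP-1 and an E-box, whose letters overlap in 1 run. The Plxna1 window, chr6:89345527-89345826, held the TEAD motif. The Ncam1 window, chr9:49663575-49663874, held RUNX on the opposite strand, the Myo1d window, chr11:80489377-80489676, held ETS on the opposite strand, and the Pmepa1 window, chr2:173264229-173264528, held SP/KLF at 2 places.
Gm20388, AP-1 and E-box: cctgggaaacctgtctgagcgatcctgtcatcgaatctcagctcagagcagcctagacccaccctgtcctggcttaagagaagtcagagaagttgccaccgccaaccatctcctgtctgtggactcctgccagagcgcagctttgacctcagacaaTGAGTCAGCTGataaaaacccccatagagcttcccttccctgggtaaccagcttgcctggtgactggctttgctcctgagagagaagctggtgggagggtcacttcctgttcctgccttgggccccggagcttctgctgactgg
Plxna1, TEAD: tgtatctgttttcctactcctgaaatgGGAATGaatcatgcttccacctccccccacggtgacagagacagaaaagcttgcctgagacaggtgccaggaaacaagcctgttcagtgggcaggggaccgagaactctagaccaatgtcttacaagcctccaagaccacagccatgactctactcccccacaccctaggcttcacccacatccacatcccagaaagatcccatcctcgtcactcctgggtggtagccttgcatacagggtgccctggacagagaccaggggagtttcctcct
Ncam1, RUNX: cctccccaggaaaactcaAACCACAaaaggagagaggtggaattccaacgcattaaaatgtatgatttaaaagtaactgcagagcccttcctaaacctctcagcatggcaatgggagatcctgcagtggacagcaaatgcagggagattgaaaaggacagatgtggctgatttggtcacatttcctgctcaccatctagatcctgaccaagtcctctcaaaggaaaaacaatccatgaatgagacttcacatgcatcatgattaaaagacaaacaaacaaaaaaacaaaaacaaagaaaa
Myo1d, ETS: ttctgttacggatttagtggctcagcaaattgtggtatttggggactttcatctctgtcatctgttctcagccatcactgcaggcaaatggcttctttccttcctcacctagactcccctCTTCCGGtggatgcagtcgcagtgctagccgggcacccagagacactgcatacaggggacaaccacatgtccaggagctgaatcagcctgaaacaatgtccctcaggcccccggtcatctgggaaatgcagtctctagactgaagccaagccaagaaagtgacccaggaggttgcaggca
Pmepa1, SP/KLF: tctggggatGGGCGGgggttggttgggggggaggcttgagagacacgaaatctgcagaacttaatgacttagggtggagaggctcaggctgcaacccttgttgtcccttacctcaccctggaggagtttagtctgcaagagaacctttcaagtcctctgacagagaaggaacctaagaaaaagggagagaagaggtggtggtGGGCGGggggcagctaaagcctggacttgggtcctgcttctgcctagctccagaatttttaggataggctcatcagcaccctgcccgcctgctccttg
All 5 windows lay in introns. The Gm20388 element lay 1299 bases from an annotated start of Gse1, a gene inside the Gm20388 model, and scored 565 and 597 in Ctrl and 540 and 480 in sKO. The Plxna1 element, in the gene of a semaphorin receptor, scored 502 and 610 in Ctrl and 583 and 470 in sKO. The Ncam1 element, 135201 bases from the TSS of this neural cell adhesion gene, scored 418 and 495 in Ctrl and 428 and 343 in sKO. The Myo1d element, in the gene of an unconventional myosin, scored 269 and 345 in Ctrl and 407 and 274 in sKO, and the Pmepa1 element, in the gene of an inhibitor of TGF-beta signalling, scored 409 and 447 in Ctrl and 474 and 391 in sKO. On this deposited scale the genotypes overlapped for 4 of the elements, and for Gm20388 both sKO scores lay below both Ctrl scores. Scaling the libraries to equal summed scores can change this, for example to 610 and 569 in Ctrl against 472 and 541 in sKO for Plxna1. None of the 5 passed the limma test, with adjusted p = 0.9998 on the deposited scale for each and between 0.205 and 0.992 after scaling the libraries to equal summed scores.

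Gene-body peaks were short and mostly intronic. Their median length was 346 bases, with quartiles of 237 and 544 bases and a minimum of 201 bases, against 503.5 bases for 5978 promoter peaks (centre within 1000 bases of the TSS of a protein-coding gene). By GENCODE M21, 87.3% of the centres lay in an intron, 5.70% in a UTR, 3.63% in a coding exon and 3.38% in an exon of a non-coding transcript. Although every member lay more than 5000 bases from the TSS listed for it, 17.0% were within 1000 bases of some annotated transcript start. Of those 3864 peaks, 2772 were next to another start of the host gene itself, 430 next to a start of another protein-coding gene, and 662 next to a start of a gene that is not protein-coding. The 430 peaks at starts of other protein-coding genes had a median mean score of 55.3 and a median GC content of 56.3%, whereas the 18916 peaks away from any start had 37.5 and 46.3%.

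The mean score over the 4 libraries had a median of 38.0 in gene-body peaks, with quartiles of 23.8 and 72.1, and reached 651.5. Per kb of peak the median was 112 for gene-body peaks, 150 for promoter peaks, 115 for 1520 peaks at 3′ ends (over 5000 bases from the TSS and within 1000 bases of the gene end) and 119 for 13258 intergenic peaks. Only 8721 members (38.3%) had a mean score above 50 and entered the tests between genotypes, compared with 65.7% of promoter peaks. The limits of the rule did not fall at a step in the signal. Peaks 4000 to 5000 bases from the TSS had a median score of 42.0 (677 peaks) and those 5000 to 6000 bases away 38.1 (640 peaks), peaks 500 to 1000 bases from the 3′ end had 38.1 (632 peaks) and those at 1000 to 1500 bases 34.6 (572 peaks), and 48 members of 1800 bases or longer had 310.8 while 40 peaks just over 2000 bases had 351.9.

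Pooled over genes, the number of gene-body peaks per Mb of gene fell with distance from the TSS, whereas their score did not. Over 9616 protein-coding genes with a listed peak, there were 72.1 peaks per Mb at 5 to 10 kb from the TSS, 54.1 at 20 to 50 kb, 28.2 at 100 to 200 kb and 14.0 beyond 200 kb. In the 5357 genes that also had a promoter peak the density was 72.6 at 5 to 10 kb, 67.0 at 20 to 50 kb, 45.7 at 100 to 200 kb and 25.6 beyond 200 kb. The median score in these distance classes ranged from 36.3 to 39.5 over all listed genes, with no steady trend. Each peak is credited to 1 gene while the bases of overlapping genes were counted for each of them, and the Gm20388 model described below was left out of this count. Only long genes reach the far classes, so the classes hold different genes, and the part of gene length in the fall was not tested.

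**Figure D1:**
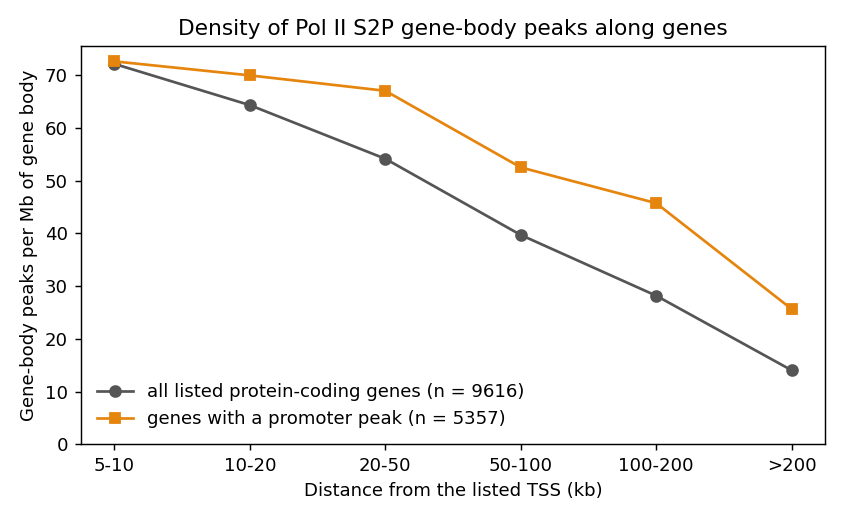
Gene-body Pol II S2P peaks per Mb of gene body (vertical axis) in 6 classes of distance from the listed TSS in kb (horizontal axis), for all listed protein-coding genes and for genes with a promoter peak. The density fell from 72.1 to 14.0 peaks per Mb over all listed genes and from 72.6 to 25.6 in genes with a promoter peak.

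Gene-body peaks were spread unevenly over their hosts. Of 5656 host genes, 2159 held 1 peak and 477 held 10 or more, and these 477 genes contained 9198 peaks (40.4%). The number of peaks and the length of the host gene were only loosely related (Spearman rho = 0.28 across 5656 genes, which are not independent replicates). Among 20621 peaks in genes with more than 1, the median distance to the nearest member of the same gene was 1688 bases, and 14987 had one within 5000 bases. A promoter peak was present for 2158 of the hosts (38.2%), or 2191 (38.7%) when peaks of any length were counted, so most hosts had gene-body peaks without a called Pol II S2P peak at the listed TSS.

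The 10 hosts with most peaks were led by Gm20388, with 354. The deposited table lists this identifier as Galnt2, but in GENCODE M21 it is a read-through model at chr8:119910841-124345722 that spans 4.43 Mb, and 241 of its 354 peaks (68.1%) were centred inside another protein-coding gene as well. The satellite cell marker Cdh15, the gene of M-cadherin, lies inside the model, and peaks 326 and 3484 bases from its start are listed with Gm20388. Fgfr2, a fibroblast growth factor receptor with 76 peaks, was of the same kind, because its model at chr7:130162451-133123350 covers 2961 kb and 73.7% of its peaks were inside another protein-coding gene. The other 8 hosts had no peak centred in a neighbouring protein-coding gene. Over all members 6.13% were centred in more than 1 protein-coding gene.

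Other hosts with many members included Ncam1, Ttn and Runx1. Ncam1, a cell adhesion molecule of myogenic and neural cells (chr9:49502136-49798925), held 180 peaks, or 60.6 per 100 kb, and its summed gene-body score was 7783 and 11104 in Ctrl and 12645 and 8687 in sKO. Ttn, which encodes the sarcomeric protein titin (chr2:76703980-76982547), held 169 peaks with summed scores of 4556 and 7627 in Ctrl against 7564 and 4539 in sKO. Runx1, a transcription factor gene (chr16:92601466-92826149), held 100 peaks with summed scores of 5148 and 6903 in Ctrl against 8141 and 5728 in sKO. In all 3 genes the genotypes overlapped on this scale, on which the library totals also differ.

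As a share of each library, the peaks of Ncam1 took 23.9 and 26.2 per 10000 of the summed score in Ctrl and 25.9 and 25.3 in sKO, those of Runx1 15.8 and 16.3 in Ctrl and 16.7 in both sKO libraries, and those of Ttn 14.0 and 17.97 in Ctrl and 15.5 and 13.2 in sKO. The RNA-binding protein genes among the top hosts were Qki (named Qk in GENCODE M21; 87 peaks, 10.3 and 10.9 per 10000 in Ctrl, 12.6 and 11.3 in sKO), Rbfox2 (81 peaks, 17.1 and 16.7 in Ctrl, 16.6 and 15.2 in sKO) and Celf2 (77 peaks, 5.66 and 8.29 in Ctrl, 6.34 and 6.48 in sKO). Macf1, a microtubule-actin crosslinker, held 89 peaks with 10.55 and 12.5 per 10000 in Ctrl and 10.48 and 10.40 in sKO, and Eya4, a transcriptional co-activator gene, held 63 with 7.9996 and 8.52 per 10000 in Ctrl and 7.19 and 7.14 in sKO. Qki had the densest peaks of the 10, at 74.2 per 100 kb. Both sKO shares lay above both Ctrl shares for Qki and Runx1 and below them for Rbfox2, Macf1, Eya4 and Gm20388 (71.3 and 69.3 per 10000 in Ctrl, 63.7 and 63.3 in sKO), and none of these gene sums was tested further. The share of all host genes that separated in this way was not computed. Over all tested single peaks, both sKO scores lay above both Ctrl scores in 20.7% and below them in 23.8% on equal summed scores. Separation of a host is therefore given as a description only.

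The 10 highest-scoring members were long, between 1113 and 1999 bases, so their rank reflects length as well as density of signal, and 9 of them were centred in introns. The top peak, in Psmc3, which encodes an ATPase of the proteasome (chr2:91060697-91062514), scored 636 and 708 in Ctrl and 736 and 526 in sKO. Kremen1, the gene of a Dickkopf receptor in Wnt signalling, held 2 of the top 10 (chr11:5192081-5194035 and chr11:5201566-5202876), with 695 and 660 in Ctrl and 559 and 438 in sKO for the first peak and 623 and 589 against 535 and 387 for the second. Both Kremen1 peaks were lower in both sKO libraries. On equal summed scores their log2 changes were -0.59 ± 0.15 (SE; limma adjusted p = 0.014) and -0.55 ± 0.15 (adjusted p = 0.031), both past the limits of a call, but without Ctrl replicate 1 the changes were only -0.36 and -0.32, and on the deposited scale adjusted p was 0.9998 for each. A second Gm20388 element near Cdh15 (chr8:122850483-122852418) scored 573 and 654 in Ctrl and 575 and 342 in sKO, for a log2 change of -0.60 ± 0.15 on equal summed scores (limma adjusted p = 0.013). The others of the top 10 were the Gm20388 and Plxna1 elements shown above and peaks in Tiam2, a Rac exchange factor gene, Acot7, an acyl-CoA thioesterase gene, Plec, which encodes the cytolinker plectin, and Gm21992, where the peak was 140 bases from a start of Rbm4b. None of these passed the test on either scale.

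The sequence of gene-body peaks differed from that of the gene around them. The median GC content of the central 300 bases was 46.7%, against 45.3% in windows 2000 bases upstream and 2000 bases downstream of the same centres, 61.7% in promoter peaks, 47.3% at 3′ ends and 47.3% in intergenic peaks. For these windows upstream means lower and downstream higher chromosome coordinates, whatever the strand of the gene. The ratio of observed to expected CpG had a median of 0.18, compared with 0.76 in promoter peaks. An AP-1 motif was present in 22.2% of gene-body windows, in 9.04% and 8.36% of the upstream and downstream windows, in 5.40% of promoter peaks and in 7.84% of 31396 RefSeq promoters. An E-box was present in 27.1% of gene-body windows and 15.0% of the windows on either side. For TEAD the shares were 19.5% against 14.6% and 15.3%, and for RUNX 11.2% against 7.71% and 7.73%.

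Against promoter peaks, the promoter motifs showed the opposite order. ETS letters were found in 1.60% of gene-body windows and 16.9% of promoter peaks, and SP/KLF letters in 7.40% and 60.2%. Against the upstream and downstream windows both were also more frequent in gene-body peaks, since ETS was present there in 1.18% and 1.15% and SP/KLF in 4.57% and 4.86%. Intergenic peaks resembled gene-body peaks, with AP-1 in 23.5% and E-boxes in 26.4%, while peaks at 3′ ends were lower, with 12.5% and 20.3%. At least 1 of the AP-1, E-box, TEAD and RUNX motifs occurred in 58.2% of members and in 39.5% of the upstream windows. AP-1 and an E-box occurred together in 6.32% of members, near the 6.01% obtained by multiplying their shares. In RefSeq promoters of 300 bases the share was 16.3% for the E-box, 14.6% for TEAD, 5.32% for RUNX, 9.004% for ETS and 36.0% for SP/KLF. A match of letters describes the window and is not evidence of binding.

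**Figure D2:**
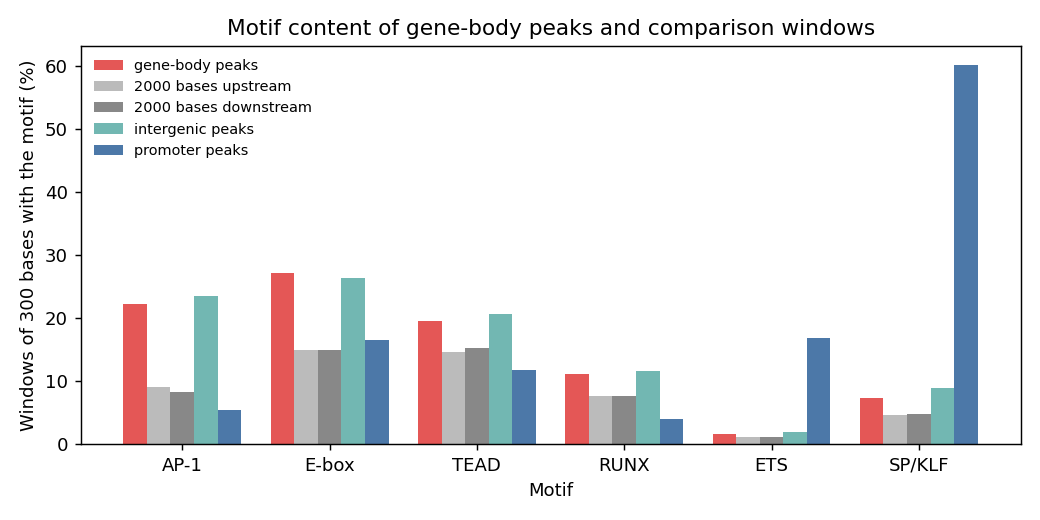
Percentage of 300-base windows (vertical axis) that hold each of 6 motifs (horizontal axis) on either strand, in gene-body peaks, windows shifted by 2000 bases to either side, intergenic peaks and promoter peaks. AP-1 was present in 22.2% of gene-body windows against 9.04% upstream, whereas SP/KLF was present in 60.2% of promoter peaks against 7.40% of gene-body peaks. Upstream means lower and downstream higher chromosome coordinates, whatever the strand of the gene.

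Motif content rose with the score of the peak. From the lowest to the highest quartile of mean score, the share with AP-1 went from 15.4% through 19.4% and 24.5% to 29.4%, and the share with an E-box from 21.3% through 23.6% and 28.2% to 35.3%. TEAD went from 17.1% to 23.1% and RUNX from 8.99% to 12.9%. The windows had the same length throughout, but median GC content also rose from 45% to 49% and median peak length from 213 to 711 bases, and the part of either in the motif shares was not tested.

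The first question between genotypes was whether Pol II S2P inside genes differed after loss of Kmt5b. On the deposited scale the median log2(score + 1) of the 8721 tested members was 6.19 and 6.57 in Ctrl and 6.77 and 6.30 in sKO. The 2 genotypes overlapped, with a difference of 0.16 (exact two-sided permutation test over 4 libraries, p = 0.667; the smallest p that 2 against 2 libraries allow is 0.333). The direction was set by single libraries, because it turned to -0.03 without Ctrl replicate 1 and to -0.08 without sKO replicate 1. Of the summed score, gene-body peaks held 33.3% and 34.5% in Ctrl and 33.6% and 33.8% in sKO, which is a difference of -0.25 percentage points that was smaller than the spread between the Ctrl libraries (SD 0.84) and became 0.34 without Ctrl replicate 2. On equal summed scores, the median deviation of members from the mean of the 4 libraries was 0.016 and 0.019 in Ctrl against -0.018 and 0.012 in sKO, which did not overlap but differed by only -0.020 (exact two-sided permutation p = 0.333, the smallest possible), whereas the median level differed by 0.018 in the other direction.

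Relative to promoters, the same peaks did separate the libraries. The per-library median deviation from the mean of the 4 libraries was lower in gene-body than in promoter peaks by 0.068 and 0.035 in Ctrl and higher by 0.070 and 0.041 in sKO, in log2 units. The difference between genotypes was 0.11 (exact two-sided permutation p = 0.333, the smallest possible; n = 2 libraries per genotype) and lay between 0.090 and 0.12 when any library was left out. This contrast is the same whatever factor scales each library. Gene-body peaks kept their share of the total while promoter peaks went from 16.2% and 15.9% in Ctrl to 14.4% and 14.9% in sKO. Against intergenic peaks and peaks at 3′ ends the gene-body peaks were on the other side, with differences of -0.084 and -0.087 between genotypes (exact two-sided permutation p = 0.333 for each), and both sKO values lay below both Ctrl values. The intergenic share was 20.0% and 20.4% in Ctrl and 21.6% and 21.3% in sKO, and the 3′ end share 2.55% and 2.60% in Ctrl and 2.66% and 2.68% in sKO.

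**Figure D3:**
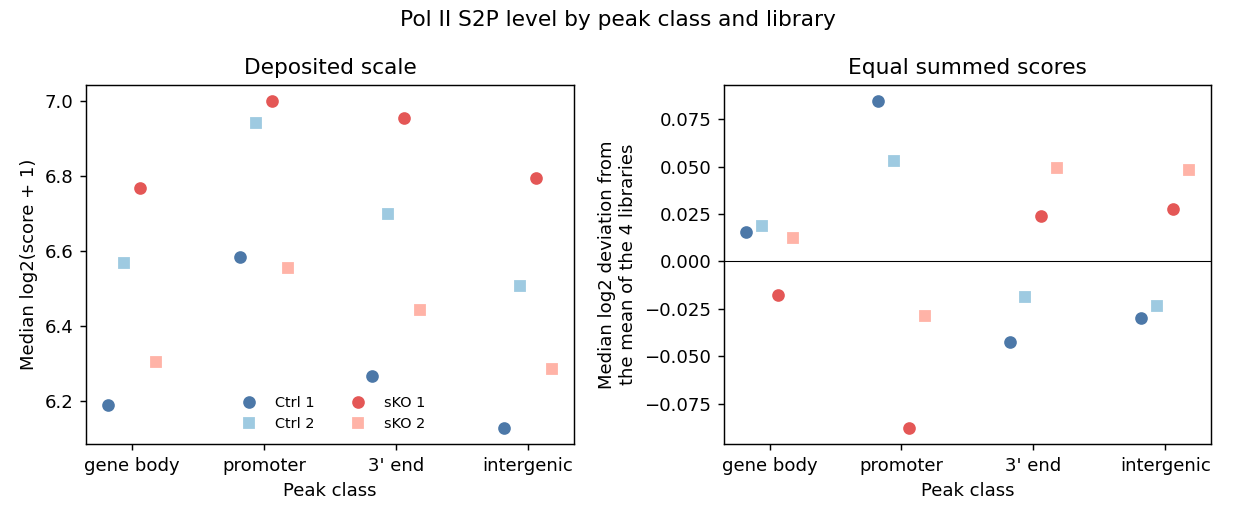
Left, median log2(score + 1) of tested peaks in each library by peak class on the deposited scale. Right, median log2 deviation from the mean of the 4 libraries after scaling to equal summed scores. Each point is 1 library, and on the right the Ctrl libraries lie above the sKO libraries for promoter peaks (0.084 and 0.053 against -0.088 and -0.029) and by far less for gene-body peaks (0.016 and 0.019 against -0.018 and 0.012).

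The same contrast was taken gene by gene in the 2118 genes with at least 1 gene-body peak, at least 1 promoter peak and a mean summed score above 50. The median share of a gene's score in its gene-body peaks was 56.3% and 57.7% in Ctrl and 59.8% and 59.2% in sKO, which is a difference of 2.5 percentage points (exact two-sided permutation p = 0.333, the smallest possible; n = 2 per genotype) that stayed between 1.8 and 3.2 when 1 library was left out. Both sKO shares exceeded both Ctrl shares in 672 genes, or 31.7% of those compared, and lay below both in 225, or 10.6%. No single gene passed limma on the log2 ratio of gene-body to promoter score at an adjusted p under 0.1, while 149 genes had a higher ratio in sKO and 28 a lower ratio at an unadjusted p under 0.05. The median log2 change of the ratio was 0.20, with quartiles of -0.091 and 0.46.

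The genes with the smallest p in that comparison were chosen after their values were seen and serve as illustrations. In Ttc9 (chr12:81631249-81667557) the gene-body score was 47 and 83 in Ctrl and 123 and 72 in sKO, while its promoter peak scored 24 and 41 in Ctrl and 17 and 9 in sKO, for a log2 change of the ratio of 1.86 ± 0.28 (SE; limma adjusted p = 0.17). In Unkl, which ranked next, both parts separated, with gene-body scores of 29 and 44 in Ctrl against 66 and 52 in sKO and promoter scores of 15 and 23 against 11 and 8 (log2 change of the ratio 1.61 ± 0.28). In Fem1b the single gene-body peak scored 7 and 13 in Ctrl against 82 and 26 in sKO, while its promoter peak scored 90 and 139 against 116 and 67. In Pcmt1, which encodes a protein repair methyltransferase, the 3 gene-body peaks summed to 69 and 98 in Ctrl and 186 and 94 in sKO against promoter scores of 27 and 29 in Ctrl against 21 and 12 in sKO. Of the genes with a lower ratio in sKO, Pea15a had the smallest p. Pea15a, the gene of an adaptor of ERK signalling, had gene-body scores of 100 and 108 in Ctrl against 105 and 73 in sKO, and a promoter peak that scored 23 and 17 in Ctrl and 93 and 33 in sKO. On the deposited scale the promoter scores alone separated the genotypes in Ttc9, Pcmt1 and Pea15a, the gene-body scores alone in Fem1b, and both in Unkl. The library totals also differ on this scale, so this does not show which part moved the ratio.

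GC content moved with the contrast between genotypes. On equal summed scores, the 1139 members with less than 40% GC deviated by -0.051 and -0.046 in Ctrl and 0.056 and 0.065 in sKO, and the 1717 members with 55% or more by 0.062 and 0.070 in Ctrl and -0.088 and -0.024 in sKO. The difference between these bands changed by -0.23 between genotypes (exact two-sided permutation p = 0.333). Within bands of GC the contrast with promoter peaks was 0.12 below 40% (27 promoter peaks only), 0.11 at 40 to 45%, 0.058 at 45 to 50%, 0.023 at 50 to 55%, where the genotypes overlapped, and 0.019 at 55% or more, where 1717 members met 3120 promoter peaks. The contrast was thus smallest in the bands that held most promoter peaks. In bands of equal score it was 0.12 at 50 to 75, 0.12 at 75 to 100 and 0.085 at 100 to 200. Whether base composition affected recovery in these libraries was not tested.

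**Figure D4:**
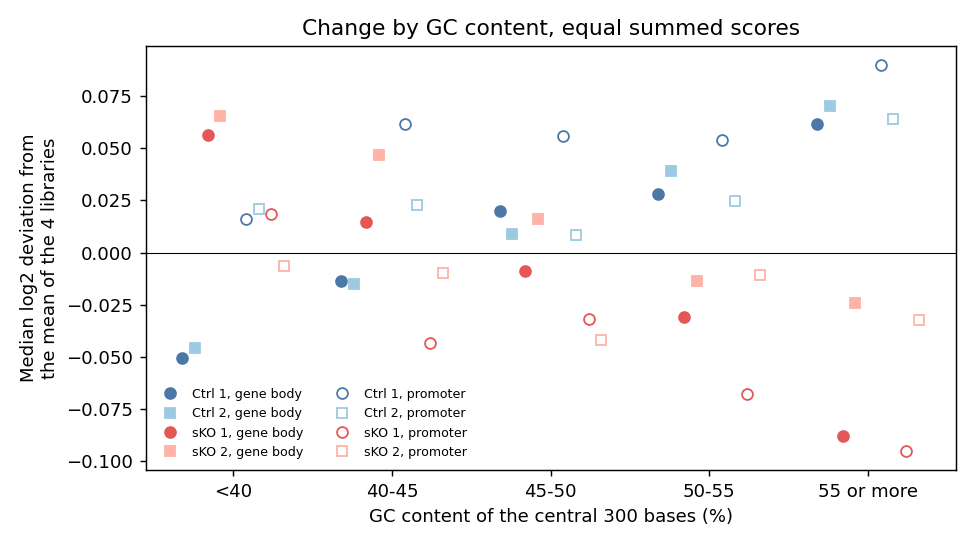
Median log2 deviation from the mean of the 4 libraries on equal summed scores (vertical axis) for gene-body peaks (filled) and promoter peaks (open) in 5 bands of GC content (horizontal axis). Each point is 1 library, and for gene-body peaks the sKO libraries pass from above the Ctrl libraries below 40% GC (0.056 and 0.065 against -0.051 and -0.046) to below them at 55% or more. The 27 promoter peaks below 40% GC overlapped between genotypes.

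Members with and without each motif were compared in the same way. The 2930 tested members with an E-box deviated by 0.053 and 0.049 in Ctrl and -0.044 and -0.020 in sKO, whereas the 5791 without one stayed within 0.030 of 0 in every library. The difference with minus without changed by -0.097 in sKO relative to Ctrl (exact two-sided permutation p = 0.333, the smallest possible). E-box members had a median GC content of 50.7% against 47.0%. Within the 5 GC bands the difference was -0.064, -0.095, -0.060, -0.088 and -0.051 from the lowest to the highest band. Both sKO libraries lay below both Ctrl libraries in each band. In the lowest band, with 132 E-box members, this was by little, at -0.028 in Ctrl replicate 2 against -0.030 in sKO replicate 2. For 3 other motifs the difference with minus without also did not overlap between genotypes. It changed by -0.12 for SP/KLF, whose members had a median GC content of 57.3%, by -0.048 for ETS (0.018 and 0.033 in Ctrl against -0.0069 and -0.038 in sKO; 179 members) and by -0.021 for TEAD (0.019 and 0.00089 against -0.012 and -0.011). Over all tested members the genotypes overlapped for AP-1, at 0.00048 and -0.037 in Ctrl against -0.015 and 0.048 in sKO (change 0.035; exact two-sided permutation p = 0.667), and for RUNX (change -0.015; exact two-sided permutation p = 0.667). Within GC bands the AP-1 difference overlapped below 50% GC. It did not at 50 to 55%, with -0.017 and -0.025 in Ctrl against -0.0010 and 0.043 in sKO. At 55% or more it was -0.037 and -0.036 in Ctrl against -0.014 and 0.073 in sKO, also without overlap. Over all members these are 6 motif contrasts. None of them, nor any within a band, can go below p = 0.333 in the exact permutation test with 2 libraries per group.

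For single peaks, limma on log2(score + 1) over all 22353 autosomal peaks with a mean score above 50 called 1 gene-body peak higher and 0 lower in sKO on the deposited scale (log2 fold change past 0.5 and adjusted p under 0.1). Over all tested peaks 0.0447% were called higher and 0.00447% lower, so 1 of 8721 is not above that background. At an unadjusted p under 0.05 there were 227 members higher (2.60%) and 17 lower (0.195%), against 740 (3.31%) and 34 (0.152%) of all tested peaks. The called peak lies in an intron of Rnf125, an E3 ubiquitin ligase gene (chr18:20971082-20971594), and scored 25 and 22 in Ctrl and 151 and 87 in sKO. It passed the limit of 50 on mean score only through its sKO scores. Its log2 change was 2.24 ± 0.55 (SE; limma adjusted p = 0.089), and it ranged from 1.85 to 2.64 when 1 library was left out, although no gene-body peak was called higher in 3 of those 4 fits (0 without Ctrl replicate 1, Ctrl replicate 2 or sKO replicate 1) and 23 were called without sKO replicate 2.

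When the 4 libraries were scaled to equal summed scores, which removes any difference in total Pol II S2P between them, 140 members were called higher and 104 lower. The background over all tested peaks was 2.51% higher and 1.19% lower, against 1.61% and 1.19% of members. At an unadjusted p under 0.05 the split on this scale was nearly even, at 573 members higher (6.57%) and 536 lower (6.15%). Over all tested peaks these shares were 7.87% and 6.87%, so members were not above that background. Of promoter peaks 0.382% were called higher and 1.27% lower, and of intergenic peaks 4.71% and 0.738%. The counts for members went to 37 higher and 7 lower when Ctrl replicate 1 was dropped, 214 and 149 without Ctrl replicate 2, 34 and 59 without sKO replicate 1 and 97 and 78 without sKO replicate 2, so they depend on which libraries enter. By overlap alone, both sKO scores exceeded both Ctrl scores in 19.9% of members (background 20.7%) and lay below both in 22.7% (background 23.8%).

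The peaks with the largest rise on equal summed scores were intronic and far from annotated starts. After Rnf125 these were a peak in Stk32a, a kinase gene, with scores of 22 and 29 in Ctrl against 151 and 65 in sKO, a peak in Il12rb2, a subunit of the interleukin-12 receptor, with 19 and 19 against 113 and 50, a peak in Vamp9 with 17 and 54 against 138 and 72 (log2 change on equal summed scores 1.54, or 0.92 without Ctrl replicate 1), and a peak in Mmrn2, an extracellular glycoprotein gene of endothelium (chr14:34391755-34392605), with 58 and 54 against 254 and 113. In each of these both sKO scores exceeded both Ctrl scores on the deposited scale as well. Rnf125, Stk32a, Il12rb2 and Vamp9 passed the limit of 50 on mean score only through their sKO scores. Peaks this low in Ctrl entered the test only when high in sKO, so their values illustrate a rise and do not test it. With Mmrn2 included, the log2 changes on equal summed scores lay between 1.44 ± 0.26 for Mmrn2 (limma adjusted p = 0.00019) and 2.104 ± 0.37 for Rnf125 (adjusted p = 0.00014). The endothelial list held 133 and 211 in Ctrl and 256 and 151 in sKO in summed score, from peaks listed with Pecam1 and Tek, while Cdh5, Kdr and Emcn had no listed peak. Among the smallest p values on the deposited scale was a peak of 1577 bases in Rarb, the gene of retinoic acid receptor beta (chr14:16438212-16439788), which scored 86 and 111 in Ctrl and 349 and 233 in sKO, for a log2 change of 1.54 ± 0.40 there (limma adjusted p = 0.19) and 1.40 ± 0.21 on equal summed scores (adjusted p = 3.9e-06). Peaks in Shcbp1l (81 and 175 in Ctrl, 498 and 236 in sKO) and in 2010111I01Rik, listed as Aopep, an aminopeptidase gene (75 and 101 in Ctrl, 311 and 165 in sKO), completed that group.

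The peaks with the largest fall included a peak in Col1a2, a peak next to Cdh15 and a pair of peaks in Klf6. A coding-exon peak near the end of Col1a2, a chain of type I collagen (chr6:4537652-4538367), scored 137 and 86 in Ctrl and 48 and 52 in sKO, for a log2 change of -1.24 ± 0.30 on equal summed scores (limma adjusted p = 0.0094) that was -0.72 without Ctrl replicate 1. The peak 326 bases from the start of Cdh15 (chr8:122847831-122848753) scored 158 and 182 in Ctrl and 77 and 91 in sKO, for a log2 change of -1.15 ± 0.24 (limma adjusted p = 0.0015). Peaks that overlap annotated UTRs of Klf6, a zinc finger transcription factor gene, scored 88 and 139 in Ctrl and 54 and 54 in sKO for one and 60 and 107 against 44 and 36 for the other. A peak in Sbno2, a transcriptional co-regulator gene, scored 62 and 88 in Ctrl and 54 and 23 in sKO, and a peak in Igfn1, expressed in skeletal muscle, scored 98 and 112 in Ctrl and 85 and 33 in sKO, with a log2 change of -1.11 on equal summed scores that was -0.69 without sKO replicate 2. In all of these both sKO scores were below both Ctrl scores. The Sbno2 peak and the Klf6 peak with 60 and 107 in Ctrl passed the limit on mean score only through their Ctrl scores. The sKO scores of the Col1a2 peak, 48 and 52, lay about that limit. Peaks this low in sKO entered the test only when high in Ctrl, so their values illustrate a fall and do not test it. Vim, which encodes vimentin, had a peak (chr2:13579883-13580931) that scored 400 and 158 in Ctrl and 152 and 117 in sKO, and this change rested on Ctrl replicate 1, since on equal summed scores it went from -1.05 to -0.19 without that library and to -1.91 without Ctrl replicate 2. On the deposited scale none of these peaks passed the test (limma adjusted p = 0.9998 for each).

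Host genes of known function were examined in 8 lists, which were chosen with earlier results of these data known. Of the myogenic and satellite cell transcription factors, 11 of 14 genes held 190 members, of which 80 were tested and 0 were called in either direction on either scale. Their median log2 change on equal summed scores was -0.0041, against -0.027 over all tested peaks. Beside Runx1, these were led by Tead1 (30 peaks; 4.28 and 5.07 per 10000 of the summed score in Ctrl, 4.11 and 4.63 in sKO), Hmga2, a chromatin architectural factor (25 peaks; 4.04 and 3.10 in Ctrl, 4.37 and 4.71 in sKO) and Mef2d (9 peaks; 1.03 and 1.29 in Ctrl, 1.05 and 1.01 in sKO). Runx1 took 15.8 and 16.3 per 10000 in Ctrl against 16.7 and 16.7 in sKO, and both sKO shares exceeded both Ctrl shares for Runx1 and Hmga2 among these 4. No such share over all host genes was computed, and among single tested peaks it was 20.7% on equal summed scores, so this is not a result about the list.

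Surface and adhesion genes held 255 members in 10 of 12 genes, with 90 tested, 0 called on the deposited scale, and 2 higher and 1 lower on equal summed scores, where their median log2 change was 0.058. Both rises lay in introns of Itgb1, the integrin beta-1 gene. The first (chr8:128726887-128727398) scored 33 and 38 in Ctrl and 108 and 65 in sKO. Its log2 change on equal summed scores was 1.08 (limma adjusted p = 0.083). This first peak passed the limit on mean score only through its sKO scores, so its values illustrate a rise and do not test it. The second (chr8:128724237-128725144) had a log2 change of 0.81 (limma adjusted p = 0.054) that ranged from 0.41 without Ctrl replicate 1 to 1.21. The 22 Itgb1 members together took 2.30 and 2.67 per 10000 in Ctrl and 2.80 and 3.07 in sKO. The fall was a peak 5824 bases from the TSS of Ncam1 (log2 change -0.75; limma adjusted p = 0.0046). Cdh2 and Cd44 held 10 and 17 members with none called. Over all tested peaks 2.51% were called higher and 1.19% lower, so 2 and 1 of 90 are near that background and not a result about the list.

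Cytoskeletal genes held 231 members in 15 of 20 genes, with 107 tested and 2 called lower on equal summed scores, the Vim peak above and a peak in an intron of Tpm1, a tropomyosin gene (log2 change -0.90; limma adjusted p = 0.013), and the median log2 change was -0.048. This count is close to the background of 1.19% lower, and the Vim call rests on 1 library. Myh9, a non-muscle myosin heavy chain, held 45 members with 8.53 and 8.67 per 10000 in Ctrl and 8.43 and 8.02 in sKO. Lmna, which encodes lamin A and C, held 13 with 5.92 and 5.75 in Ctrl and 4.78 and 4.87 in sKO. Of the matrix list, 16 of 23 genes held 102 members, with 34 tested, 1 called lower on equal summed scores (the Col1a2 peak) and a median log2 change of -0.18, and a single call says nothing about the list. Col1a2 took 1.84 and 1.60 per 10000 in Ctrl and 1.25 and 1.39 in sKO, whereas Sparc, a matricellular protein gene, took 1.88 and 1.86 in Ctrl and 1.84 and 1.86 in sKO.

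Growth factor and Ras signalling genes held 52 members (20 tested, 0 called, median log2 change -0.087 on equal summed scores), led by Nf1, Igf1r, Met and Pdgfrb. TGF-beta and Hippo genes held 79 members (38 tested, median log2 change -0.038), with 1 called lower on equal summed scores, in an intron of Tead3 (log2 change -0.61; limma adjusted p = 0.094), which as a single call says nothing about the list. The elongation machinery, which includes the serine 2 kinases, held 61 members in 15 of 24 genes, with 13 tested, 0 called and a median log2 change of 0.087. Cdk12, one of those kinases, had 11 members with 0.88 and 1.10 per 10000 in Ctrl and 1.38 and 1.29 in sKO, and the 3 tested had a median log2 change of 0.68 on equal summed scores without any call. The list of H4K20 genes held 9 members in 4 of 6 genes, with 2 tested and 0 called. Agap2 and Arid4b, which the list also holds, do not encode H4K20 methyltransferases, and Agap2 had 4 of the members and 1 of the 2 tested peaks. The other tested peak was in Kmt5a, with a log2 change of -0.24 on equal summed scores. Kmt5a, the enzyme that sets the first methyl group on H4K20, had summed scores of 135 and 207 in Ctrl against 176 and 138 in sKO, which overlapped. As a share of each library it took 0.414 and 0.488 per 10000 in Ctrl and 0.360 and 0.402 in sKO, without overlap. This difference in share was not tested.

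H4K20me1, the second mark measured, was used as an independent readout. At least 1 base of an H4K20me1 peak lay under 75.5% of gene-body Pol II S2P peaks (17202), against 53.9% of promoter peaks, 82.7% of peaks at 3′ ends and 49.99% of intergenic peaks, and H4K20me1 peaks covered 24.7% of the autosomes. The share fell from 80.0% in the lowest to 68.9% in the highest quartile of Pol II S2P score. These peaks fell on 6234 H4K20me1 peaks, and up to 78 lay on a single one, so neighbouring members share the same H4K20me1 value. The median length of the H4K20me1 peaks under members was 19200 bases, against 8600 over all autosomal ones.

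The H4K20me1 score under gene-body peaks was higher in sKO on the deposited scale. Its median per kb over 6217 H4K20me1 peaks with a mean score above 50 was 22.0 and 28.0 in Ctrl and 50.5 and 54.3 in sKO. On log2(score + 1) the medians came to 8.63 and 8.96 in Ctrl and 9.85 and 9.97 in sKO, for a difference of 1.12 (exact two-sided permutation p = 0.333, the smallest possible; n = 2 per genotype). It lay between 0.95 and 1.28 when 1 library was left out and was 0.19 when libraries were scaled to equal summed scores, so most of it lay in the library totals. Scaling to equal sums also removes any change in total H4K20me1 that spike-in normalisation is meant to keep. The spike-in factors could not be checked. H4K20me1 peaks in protein-coding genes without any Pol II S2P peak had 18.8 and 26.2 per kb in Ctrl and 46.6 and 50.8 in sKO. The change under gene-body peaks minus the change in these was -0.052 (exact two-sided permutation p = 0.667), with overlapping libraries.

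**Figure D5:**
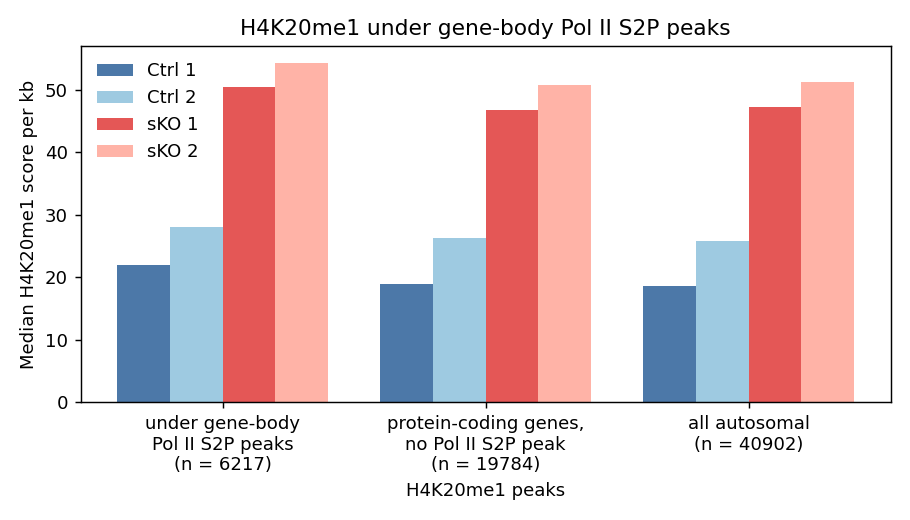
Median H4K20me1 score per kb (vertical axis) in each library, for H4K20me1 peaks under gene-body Pol II S2P peaks, H4K20me1 peaks in protein-coding genes with no Pol II S2P peak and all autosomal H4K20me1 peaks, on the deposited scale. Under gene-body peaks the Ctrl libraries were at 22.0 and 28.0 and the sKO libraries at 50.5 and 54.3, and the other sets had the same order.

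H4K20me1 density was also compared across members of different Pol II S2P density. The 6134 tested members on H4K20me1 peaks were divided into quartiles of mean Pol II S2P score per kb. In the lowest quartile the overlapping H4K20me1 peaks had a median of 27.9 and 35.5 per kb in Ctrl and 50.3 and 53.8 in sKO, and in the highest quartile 22.1 and 27.7 in Ctrl and 51.1 and 55.4 in sKO. The highest minus the lowest quartile was -5.75 and -7.75 per kb in Ctrl and 0.79 and 1.59 in sKO, without overlap (exact two-sided permutation p = 0.333, the smallest possible; n = 2 per genotype). In Ctrl both libraries declined over all 4 quartiles, whereas the sKO medians moved by less than 2 per kb. The median log2 change of H4K20me1 accordingly rose from 0.71 in the lowest quartile through 0.82 and 0.87 to 1.14 in the highest, and on equal summed scores it was -0.22, -0.11, -0.060 and 0.22, so its sign turned in 3 of the 4 quartiles while its order stayed. The Spearman correlation between Pol II S2P and H4K20me1 per kb across these peaks was -0.22 and -0.23 between same-numbered Ctrl libraries and 0.059 and 0.10 between same-numbered sKO libraries. These are descriptions over 6134 peaks that share H4K20me1 peaks and libraries, and the median length of the H4K20me1 peaks fell from 35200 to 21600 bases over the same quartiles, whose part was not tested.

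The Pol II S2P change of members was also compared between those on and off H4K20me1 peaks. On equal summed scores, members on H4K20me1 peaks deviated by -0.011 and 0.018 in Ctrl and 0.0028 and 0.024 in sKO, while the 2587 members off them deviated by 0.081 and 0.019 in Ctrl and -0.063 and -0.012 in sKO. The difference on minus off was -0.093 and -0.0012 in Ctrl and 0.066 and 0.036 in sKO, for a change of 0.098 (exact two-sided permutation p = 0.333), with Ctrl replicate 2 near 0. Without Ctrl replicate 1 the change was 0.045, and without each of the other libraries it lay between 0.076 and 0.14. Across the 6134 peaks the log2 changes of the 2 marks on equal summed scores had a Spearman correlation of -0.17, given as a description. The Spearman correlation of member scores was 0.84 between the Ctrl libraries and 0.81 between the sKO libraries, and between 0.76 and 0.81 across genotypes.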

How the data were processed

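The authors trimmed reads with Trimmomatic 0.39, aligned them to mm10 (GRCm38) with STAR 2.7.3a, removed duplicates with Picard 2.21.7 and normalised coverage to a spike-in of S2 cell DNA. MACS2 2.1.1 and SICER 0.0.41 are named in the submitters' processing notes. The deposited value per peak and library is a score, used here as deposited, because it is described as normalised coverage and not as read counts, so limma 3.58.1 in R 4.3.3 replaced count models (log2(score + 1), eBayes with trend, Benjamini-Hochberg over 22353 autosomal peaks with mean score above 50). Fold changes on this scale understate those of low peaks. Class medians and shares were compared by exact permutation over libraries. Genes and UTRs came from GENCODE M21, which held 11235 of 11251 listed identifiers, and sequence from GRCm38.p6 read with pysam 0.24.0 and RefSeq promoters. Windows in UTRs or on chromosome 18 were not printed.

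The members and lists were chosen with earlier results of these data known. The peaks named were the 10 hosts with most members, the 10 highest scores, the 5 strongest changes in each direction on the deposited scale and on equal summed scores (by p where fewer than 5 were called), and at most 4 hosts per gene list. The per-gene ratio test, the equal-sum fits without 1 library and the H4K20me1 contrast without 1 library were added after seeing the data. The peak fit was tested on simulated data: at a 4-fold change (log2 of 2) it recovered 90 of 100 peaks at the real library scale and 99 of 99 with equal libraries, and at a log2 of 1 it recovered 2 of 99 and 69 of 98, with 0 false calls at the real library scale and 19 with equal libraries. IgG libraries, the X chromosome and the authors' own comparison columns were not used.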

Additional observations from a re-analysis of the deposited data

Results flagged for a closer look

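The X chromosome lies outside the rule, and 216 X-linked Pol II S2P peaks in 93 genes met all its other criteria, which is signal in data that the comparisons above did not use. Their median mean score was 33.5, and they held 0.284% and 0.286% of the summed score in Ctrl and 0.275% and 0.270% in sKO. This difference was not tested.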

How the results depend on the processing

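The number of gene-body peaks called depended on the scale and on single libraries. It was 1 higher and 0 lower on the deposited scale, 140 and 104 on equal summed scores, and 107 and 62 after quantile normalisation. It ranged from 0 to 23 higher and from 0 to 1 lower when 1 library was left out on the deposited scale, and from 34 to 214 higher (37 without Ctrl replicate 1, 97 without sKO replicate 2) and from 7 to 149 lower (59 without sKO replicate 1, 78 without sKO replicate 2) on equal summed scores, with a lone library assumed to vary like the other group. With the replicate number as a block it was 0 and 0, and with the block on equal summed scores 129 and 92. The labels share numbers 1 and 2 across genotypes but give no pairing, and the deviations of same-numbered libraries had a correlation of -0.021 over 8721 peaks. The median change of gene-body peaks, 0.16 as deposited, was 0.018 on equal summed scores and 0.0019 after quantile normalisation, ranged from -0.076 to 0.39 without 1 library, with -0.034 without Ctrl replicate 1, and on equal summed scores from -0.0013 to 0.037. The share of the total changed sign without Ctrl replicate 2 (0.34 percentage points) and ranged from -0.85 to 0.34 over the libraries left out. With windows of 200 bases the motif shares were 16.3% for AP-1, 19.8% for E-box, 13.6% for TEAD, 7.77% for RUNX, 0.98% for ETS and 5.23% for SP/KLF, since a shorter window holds fewer letters. The other 69 values kept their direction, or stayed within 1.5 times for counts, among them the contrasts with promoter and 3′ end peaks (0.090 to 0.14 and -0.097 to -0.039), the per-gene share (1.8 to 3.3 percentage points) and the H4K20me1 overlap. Within bands of GC, however, the promoter contrast was 0.023 at 50 to 55%, with overlap, and 0.019 at 55% or more. With 2 libraries per genotype no exact permutation test over libraries can go below p = 0.333.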
